A study of Rattus norvegicus with 60 samples.

Results

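The comparison set kidney cortex of a NOX4 knockout line (NOX4) against that of the Dahl salt-sensitive strain it was made from, without the knockout (SS), after 7 days on a 4.0% NaCl diet (HS7). Diet, time and tissue were the same in both groups, and strain was the difference between them. The 5 NOX4 and 5 SS libraries were chosen by the strain, diet and tissue in their titles, and they are 10 of the 60 libraries of the series. The series also holds both strains on the control diet (LS) and after 21 days on the same salt diet (HS21), and outer medulla of the same groups. Each of the 12 groups has 5 libraries. RNA was taken from frozen tissue and libraries were made after poly(A) enrichment. The labels give no sex, age, Nox4 allele, strandedness or salt content of the control diet. They do not say whether libraries came from separate animals, so p-values measure the spread between libraries. In most tests this spread is pooled over the cortex libraries of all diets, and not taken from these 10 alone. Among these 10 libraries, the numbers in the names of all SS libraries come before those of all NOX4 libraries, so strain and this order cannot be told apart.

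NADPH oxidase 4 is an enzyme of membranes in renal tubule cells that passes electrons from NADPH to oxygen and releases hydrogen peroxide, with p22phox (Cyba) as its partner subunit. The Dahl salt-sensitive rat becomes hypertensive and develops glomerular and tubulointerstitial injury on a high-salt diet. Proximal tubules of the cortex run mainly on fatty acids burnt in mitochondria, while intercalated cells of the distal nephron secrete acid or base and podocytes form the filter of the glomerulus. The comparison addresses how cortex gene expression differs without this peroxide source early in salt loading.

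Several libraries stood apart from their groups before any test between strains. NOX4 replicates 3 and 4, whose library numbers lie outside the run of the other NOX4 cortex libraries at HS7, had a mean level of 41 cell cycle genes of 0.96 and 1.00 log2 CPM (CPM is a count scaled to library size), against 2.80 to 3.06 in the other 3 NOX4 libraries and 2.70 to 3.40 in SS. Their 23 macrophage and other myeloid genes averaged 2.97 and 2.98 log2 CPM, below the other 8 libraries at 3.62 to 4.43. Genes encoded by mitochondrial DNA took 11.12% and 10.35% of their counts, against 13.25% to 14.42% in the other NOX4 libraries and 12.76% to 16.38% in SS. SS replicates 1 and 2 were high in markers of proximal tubule segment 3, with Slc7a13, an amino acid transporter of that segment, at 2677 and 1947 CPM, against 105 to 367 CPM in NOX4 and 168 to 175 CPM in the other SS libraries. The mean of 15 such markers was 7.46 and 7.26 log2 CPM in them, 6.19 to 6.48 in the other SS libraries and 5.97 to 6.83 in NOX4. High values were not particular to these 2 libraries. SS cortex had 7.15 to 7.34 at LS and 6.34 to 7.23 at HS21, and NOX4 cortex 6.025 to 6.70 and 5.90 to 6.61. SS replicates 1 and 4 were of low complexity: at an equal depth of 10 M counts they held 14032 and 14878 genes, against 16788 to 16901 in NOX4 and 16620 to 17151 in the other SS libraries. Of 11588 genes above 3 CPM in both groups, 51 had no count in SS replicate 1. Totals ran from 17.6 to 22.9 M counts in NOX4 and from 12.6 to 19.3 M in SS. Markers of the cortex were present in all 10 libraries: 20 genes of proximal tubule segments 1 and 2 summed to 24920 to 30313 CPM in NOX4 and to 25925 to 31490 CPM in SS.

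The targeted gene was lower in every NOX4 library. Nox4 (ENSRNOG00000013925, chromosome 1, 150797084 to 150976194, plus strand, in the coordinates of the deposited table, whose build is not stated) had 67.2, 63.5, 66.2, 61.9 and 67.7 CPM in NOX4 replicates 1 to 5, against 256, 454, 530, 454 and 434 CPM in SS. The groups did not overlap, as held for 1134 of the 15179 genes tested (7.47%), and the NOX4 libraries were within 6 CPM of each other. The mean difference of log2 CPM was -2.66, with a 2-sided exact permutation p of 0.00794, the smallest that 5 against 5 libraries allow. The mean NOX4 level was 15.3% of the SS mean. Counts per gene do not tell which exons these remaining reads cover. The edgeR quasi-likelihood test, fitted over the 30 cortex libraries, gave a log2 fold change of -2.70 ± 0.16 (SE; adjusted p = 7.85e-13).

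The other NADPH oxidase genes had smaller differences. Of 9 tested members of the family and its subunits, 1 rose and 2 fell, Nox4 included, with a median log2 fold change of -0.14. Over all 15179 genes tested, 2639 (17.4%) were called at an adjusted p under 0.05, 1459 (9.61%) higher and 1180 (7.77%) lower in NOX4, with a median log2 fold change of -0.00. Without NOX4 replicates 3 and 4, 1081 of 15589 genes (6.93%) were called, 673 (4.32%) higher and 408 (2.62%) lower, and 974 genes were called the same way in both fits. Without SS replicates 1 and 2, 926 of 15557 genes (5.95%) were called, 598 (3.84%) higher and 328 (2.11%) lower. A fit of the 10 compared libraries alone, with no other group to estimate the spread, called 184 of 14215 genes (1.29%), 121 higher and 63 lower, and kept 41 of 168 calls of named genes. Nox4 was called in it (adjusted p = 1.2e-05), and most genes given below as called were not. The spread differed between groups for some lists. The SD of the cell cycle mean was 1.075 log2 CPM in NOX4 at HS7, 0.29 in SS at HS7 and 0.18 to 0.38 in the LS and HS21 cortex groups. For proximal tubule segments 1 and 2 it was 0.04, 0.20 and 0.11 to 0.21. Cybb, the catalytic subunit of the phagocyte oxidase, had 49.7, 77.8, 25.3, 26.1 and 50.6 CPM in NOX4 and 89.3, 82.3, 50.6, 54.5 and 82.4 CPM in SS. The groups overlapped, NOX4 replicates 3 and 4 were lowest, and the log2 fold change of -0.64 ± 0.21 (edgeR adjusted p = 0.0373) was -0.27 without those libraries (adjusted p = 0.39). Its call was also lost when any of NOX4 1, 3 or 4 or SS 1, 2 or 5 was left out alone (adjusted p up to 0.12). Poldip2, a protein that binds p22phox, rose by 0.26 ± 0.08 on the log2 scale (adjusted p = 0.0243), at 132 to 137 CPM in NOX4 and 99 to 133 CPM in SS, and was not called without replicates 3 and 4 (adjusted p = 0.073), nor without SS 1 or SS 2 alone (up to 0.081). Cyba itself had 245, 260, 120, 129 and 231 CPM in NOX4, against 116, 98.6, 205, 167 and 157 CPM in SS. Its log2 fold change of 0.40 ± 0.19 did not pass (adjusted p = 0.136), while without NOX4 replicates 3 and 4 it was 0.72 and passed. Without SS replicates 1 and 2, Nox4 alone of the 9 was called. Scaled to gene length, Nox4 averaged 19.2 ± 0.82 FPKM in NOX4 and 126 ± 29.8 FPKM in SS (SD, n = 5 each), and Cyba 284 ± 99 FPKM in NOX4 and 215 ± 61.5 FPKM in SS. Nox1, Noxo1, Noxa1, Duox1 and Duox2 were matched and had too few counts to be tested.

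**Figure D1:**
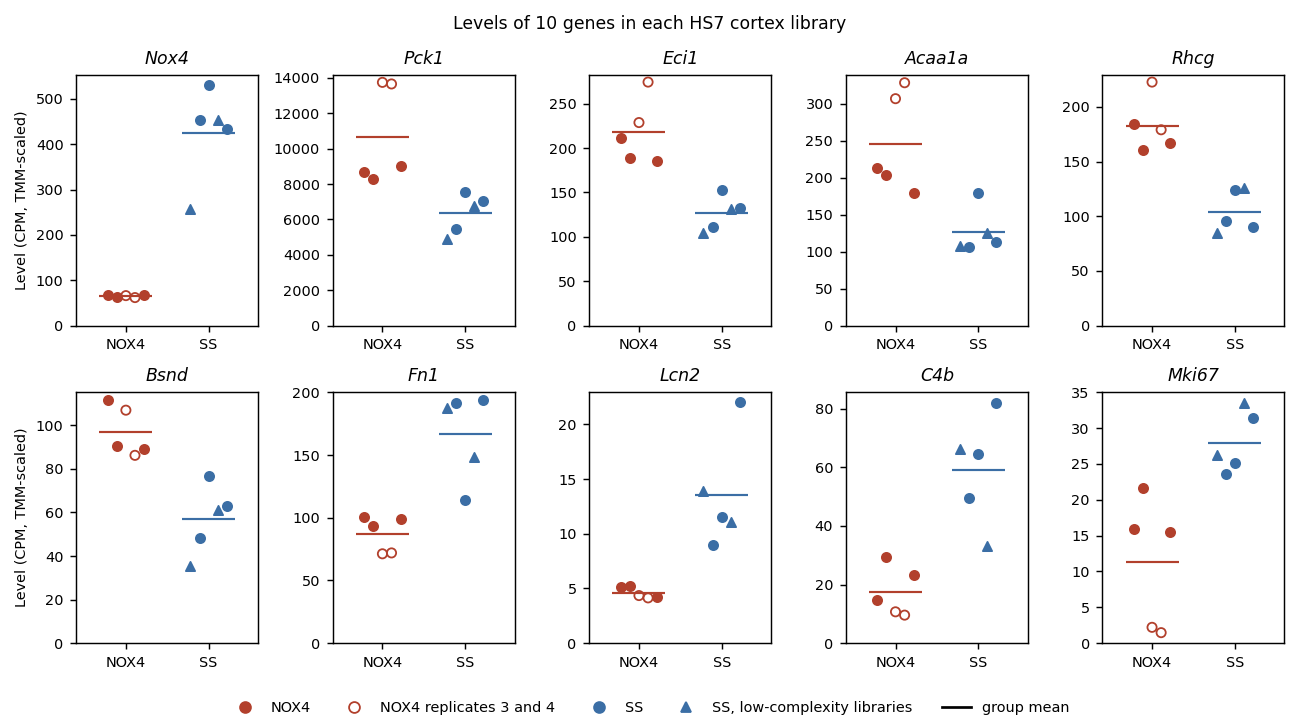
Levels of 10 genes in each library of NOX4 (left) and SS (right) cortex at HS7, in CPM on linear axes from 0; open circles are NOX4 replicates 3 and 4, triangles the SS libraries of low complexity, and lines the group means. Nox4 sits at 61.9 to 67.7 CPM in NOX4 and at 256 to 530 CPM in SS, and Pck1 and Mki67 show replicates 3 and 4 apart from the other NOX4 libraries.

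Genes of peroxide and glutathione defence went in both directions. Of 31 tested, 5 rose and 4 fell, with a median of 0.09. Gpx1, a glutathione peroxidase that reduces hydrogen peroxide, had 1498, 1372, 1611, 1780 and 1283 CPM in NOX4, against 637, 718, 1278, 966 and 939 CPM in SS. Every NOX4 library was above every SS library, though the lowest NOX4 and the highest SS value were close, and the log2 fold change was 0.73 ± 0.13 (edgeR adjusted p = 0.00069). Prdx1, a peroxiredoxin that also removes peroxide, went the other way, with 265 to 310 CPM in NOX4 and 345 to 438 CPM in SS, a log2 fold change of -0.43 ± 0.07 (adjusted p = 0.000198). Keap1, the repressor of the antioxidant factor Nrf2, rose by 0.41 ± 0.08 (adjusted p = 0.00103), Prdx5 by 0.43 and Sod1 by 0.34 on the log2 scale. Gclc and Gclm, the 2 subunits of the enzyme that starts glutathione synthesis, had log2 fold changes of -1.70 and -1.01 that rested on SS replicates 1 and 2. These held 6531 and 6006 CPM of Gclc, against 559 to 1503 CPM in NOX4 and 893 to 1082 CPM in the other SS libraries, and without them the log2 fold changes of Gclc and Gclm were -0.06 and -0.01. They were -1.95 and -1.26 without NOX4 replicates 3 and 4, and not called (adjusted p = 0.0503 and 0.0645). Gpx1, Prdx1 and Keap1 were called in both of those fits, and in the fit of the 10 libraries alone their adjusted p was 0.06, 0.046 and 0.046. Sod1 was not called without SS replicates 1 and 2 (0.26; adjusted p = 0.11). Of single libraries, SS 1 or 2 ended the call of Gclc (adjusted p up to 0.087), NOX4 1, 2, 3 or 5 or SS 1 or 2 that of Gclm (up to 0.20), and NOX4 1 or 2 or SS 2 or 5 that of Sod1 (up to 0.09).

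Enzymes of fatty acid oxidation and ketone production were higher in NOX4 cortex. Of 37 tested, 16 rose and 1 fell, with a median log2 fold change of 0.30. Without NOX4 replicates 3 and 4, 9 rose and none fell, with a median of 0.16, and without SS replicates 1 and 2, 12 rose and none fell. The list mean was 6.97 to 7.32 log2 CPM in NOX4 and 6.78 to 6.99 in SS, with the highest values in NOX4 replicates 3 and 4.

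Acaa1a, a thiolase of peroxisomal oxidation, had 213, 203, 307, 328 and 179 CPM in NOX4 and 107, 107, 179, 125 and 114 CPM in SS, so that the lowest NOX4 and the highest SS library met. NOX4 replicates 3 and 4 were highest, and the log2 fold change was 0.96 ± 0.14 (edgeR adjusted p = 0.000123). Eci1, an isomerase for unsaturated fatty acids, had 186 to 274 CPM in NOX4 and 104 to 153 CPM in SS without overlap (0.78 ± 0.11; adjusted p = 6.49e-05).

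The remaining calls ran along the pathway. Acsl1, which activates fatty acids, rose by 0.76 on the log2 scale, and Cpt1b, a carnitine palmitoyltransferase of the mitochondrial outer membrane, by 0.93. The acyl-CoA dehydrogenases Acadvl, Acadm and Acads rose by 0.36, 0.31 and 0.40, and Etfb, which takes up their electrons, by 0.40. Ehhadh, a peroxisomal enzyme, had a log2 fold change of 0.94 with all libraries and 0.20 without NOX4 replicates 3 and 4, where it was not called. Slc27a2, an importer and activator of fatty acids, likewise had 0.51 and 0.01, and was not called without SS replicates 1 and 2 (adjusted p = 0.13) or without any of NOX4 3 or 4 or SS 1 or 2 alone (up to 0.14). Acox2, an oxidase of branched chains, fell by 1.10 with all libraries, had -1.16 without NOX4 replicates 3 and 4 and 0.03 without SS replicates 1 and 2, and was called in neither of these fits, nor without any single NOX4 library, SS 1 or SS 2 (adjusted p up to 0.20). Acadm was not called without NOX4 replicates 3 and 4 (adjusted p = 0.071), with a log2 fold change of 0.29 there and 0.31 with all libraries. Of members not called with all libraries, Cpt1a and Hadhb each had -0.01, and Ppara, the nuclear receptor that drives many of these genes, had 0.22. Cpt1a averaged 273 CPM in NOX4 and 276 CPM in SS, far above Cpt1b at 11.7 and 6.11 CPM.

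The promoters of Eci1, Acadvl and Acaa1a are shown to set out where the half-site of nuclear receptors (AGGTCA, or TGACCT on the opposite strand) stands in genes of the pathway that rose. Each runs from 250 bases before to 50 bases after the start of the gene in RefSeq on GRCr8, 5′ to 3′ along the gene, with the half-site in capitals. They lie at chr10:13961000-13961299 (plus strand), chr10:55236656-55236955 (minus strand) and chr8:127957231-127957530 (plus strand).
Eci1: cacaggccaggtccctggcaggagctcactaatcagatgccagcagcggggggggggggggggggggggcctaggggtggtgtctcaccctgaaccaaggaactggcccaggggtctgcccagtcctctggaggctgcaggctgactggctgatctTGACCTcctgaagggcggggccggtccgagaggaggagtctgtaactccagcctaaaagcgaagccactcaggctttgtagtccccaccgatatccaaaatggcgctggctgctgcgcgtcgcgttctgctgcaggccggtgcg
Acadvl: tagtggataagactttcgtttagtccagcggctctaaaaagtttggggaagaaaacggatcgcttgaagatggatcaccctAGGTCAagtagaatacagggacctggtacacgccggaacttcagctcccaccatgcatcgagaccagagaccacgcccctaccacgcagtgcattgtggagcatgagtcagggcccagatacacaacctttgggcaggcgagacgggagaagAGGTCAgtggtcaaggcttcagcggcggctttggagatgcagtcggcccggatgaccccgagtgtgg
Acaa1a: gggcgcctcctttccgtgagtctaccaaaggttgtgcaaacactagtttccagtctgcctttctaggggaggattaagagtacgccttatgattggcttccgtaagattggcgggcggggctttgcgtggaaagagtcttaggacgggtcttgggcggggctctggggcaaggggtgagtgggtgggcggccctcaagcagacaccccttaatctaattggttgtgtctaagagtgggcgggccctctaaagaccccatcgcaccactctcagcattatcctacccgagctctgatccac
The half-site is in the windows of Eci1 and Acadvl and not in that of Acaa1a. Of the 16 genes of the list that rose, 11 had a promoter in the RefSeq table, and 3 of these windows (27.3%), the third being that of Slc27a2, held the half-site on either strand. Of all 33469 promoters listed there, 16.2% held it, so a match is a description of these letters and not a binding site.

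Some nuclear genes of the respiratory chain were also higher, by small amounts. Of 31 tested complex I genes 9 rose and none fell (median 0.14), and without NOX4 replicates 3 and 4 it was 10 and none. The mean of the complex I list overlapped, at 6.48 to 6.71 log2 CPM in NOX4 and 6.18 to 6.72 in SS. Ndufs7, a core subunit, had 171, 171, 163, 158 and 156 CPM in NOX4 and 126, 132, 144, 143 and 119 CPM in SS. The groups did not overlap, at a log2 fold change of 0.31 ± 0.07 (edgeR adjusted p = 0.00319). Ndufa13 rose by 0.54 ± 0.13 and Ndufb6 by 0.49. Of 38 genes of complexes II to V and cytochrome c, 10 rose and 3 fell (median 0.14). Uqcrq of complex III rose by 0.50 ± 0.11 (175 to 231 CPM in NOX4, 122 to 173 CPM in SS), Cox8a of complex IV by 0.47 ± 0.10 and Sdha of complex II by 0.33. Cycs (ENSRNOG00000010452), cytochrome c, fell to 276 to 512 CPM in NOX4, against 536 to 769 CPM in SS, with a log2 fold change of -0.66 ± 0.13. Without SS replicates 1 and 2, 3 complex I genes and 2 of complexes II to V rose, and Ndufb6 (0.38) and Sdha (0.32) were not called. The median of each list was 0.06 in that fit. Sdha was not called without NOX4 replicates 3 and 4 either (0.21; adjusted p = 0.14).

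Genes encoded by mitochondrial DNA went the other way from the nuclear ones. Of 11 tested, 6 fell and none rose, with a median of -0.31. Mt-nd3 of complex I had 1205, 1016, 828, 706 and 1020 CPM in NOX4 and 1351, 1187, 1229, 1803 and 1381 CPM in SS (-0.54 ± 0.12; edgeR adjusted p = 0.00264). NOX4 replicates 3 and 4 were lowest, and without them none of the 11 was called by edgeR, with 4 at an unadjusted p under 0.05 and a median of -0.17. Cytosolic ribosomal protein genes were higher: of 57 tested, 22 rose and 3 fell (median 0.19), and 13 and 1 without NOX4 replicates 3 and 4. Rps18, of the small subunit, had 394, 425, 434, 400 and 352 CPM in NOX4, just clear of 249, 245, 345, 281 and 294 CPM in SS (0.50 ± 0.09; adjusted p = 0.000553). Ribosomal proteins have many processed copies in the genome, and how the authors' counting treated reads that match several is not stated.

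Calls in sugar and citrate metabolism are set beside those over all genes tested, where 17.4% were called, 9.61% higher and 7.77% lower. Of 29 genes of glycolysis, gluconeogenesis and fructose metabolism 4 rose and none fell, and of 22 genes of pyruvate entry and the tricarboxylic acid cycle 5 rose and none fell, with medians of 0.09 and 0.11. With NOX4 replicates 3 and 4 left out, edgeR called 0 of the 29 (12 had an unadjusted p under 0.05, and DESeq2 called 7 with all libraries) and 1 of the 22. With SS replicates 1 and 2 left out, 1 gene of each list was called. Pck1, the rate-limiting enzyme of gluconeogenesis and an abundant transcript of proximal tubules, had 8682, 8265, 13751, 13661 and 9011 CPM in NOX4 and 4904, 5488, 7539, 6787 and 7063 CPM in SS. No libraries overlapped, and replicates 3 and 4 were far above the rest. The log2 fold change was 0.75 ± 0.16 (edgeR adjusted p = 0.00268), and 0.45 and not called without them (adjusted p = 0.084), nor called without SS replicates 1 and 2 (adjusted p = 0.056). Pdk4, a kinase that shuts pyruvate out of the mitochondrial cycle when fat is burnt, rose by 1.26 ± 0.32 (7.57 to 15.8 CPM in NOX4, 2.31 to 6.63 CPM in SS) and was called without replicates 3 and 4 (adjusted p = 0.044) but not without SS replicates 1 and 2 (adjusted p = 0.08). Among 48 genes of arginine, creatine, polyamine and amino acid metabolism, 9 rose and 1 fell (2 and 1 without NOX4 replicates 3 and 4, 5 and none without SS replicates 1 and 2), led by Bckdha of branched-chain amino acid breakdown (0.64 ± 0.10) and the urea cycle enzymes Asl (0.67 ± 0.14) and Ass1 (0.50 ± 0.11). Of the last 3, Bckdha alone was called without NOX4 replicates 3 and 4, where Asl had 0.49 (adjusted p = 0.051) and Ass1 0.37 (adjusted p = 0.066). Ass1 had 0.38 and was not called without SS replicates 1 and 2 (adjusted p = 0.065).

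**Figure D2:**
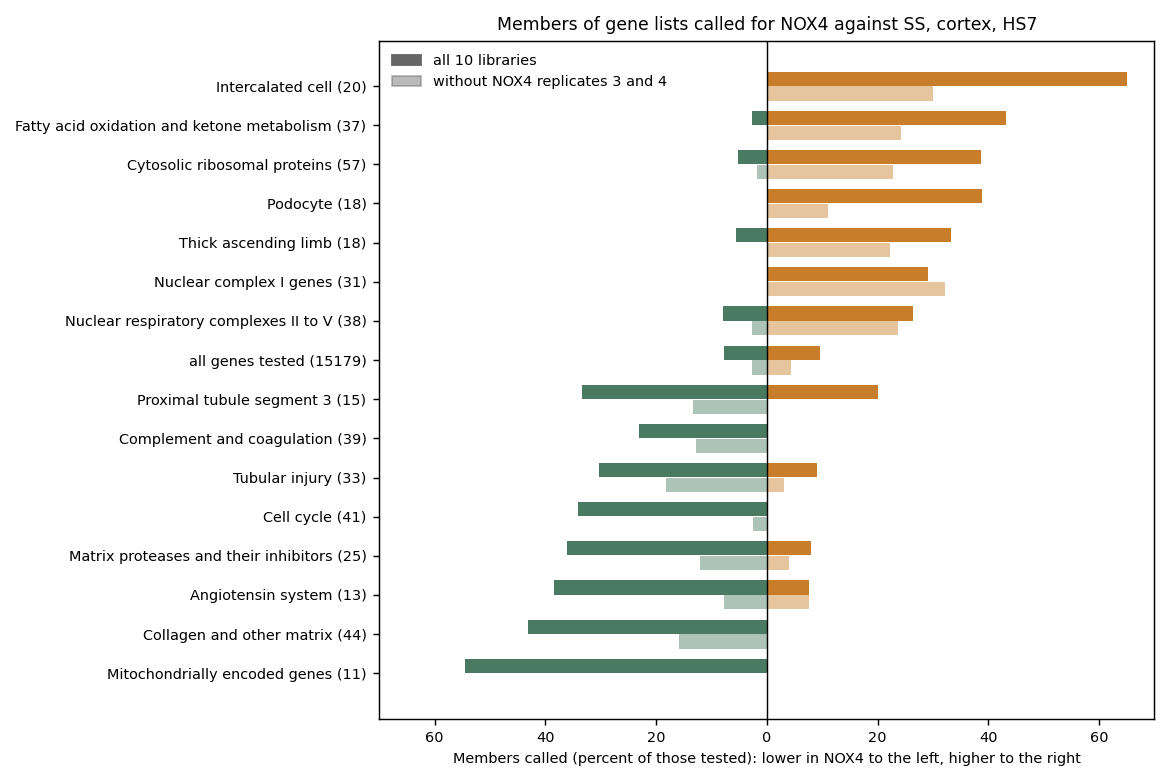
Members of 15 gene lists called higher (right) or lower (left) in NOX4 than SS cortex at HS7, as percent of the members tested, whose number is in parentheses; dark bars use all 10 libraries and pale bars leave out NOX4 replicates 3 and 4. For all 15179 genes the bars are 9.61% higher and 7.77% lower, and cell cycle goes to 1 call of 41 in the pale bars.

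Genes of intercalated cells were the list with the highest share of called members among the 48 examined. Of 20 tested, 13 rose and none fell, with a median log2 fold change of 0.58. Without NOX4 replicates 3 and 4, 6 rose (median 0.56), and without SS replicates 1 and 2, 5 rose (median 0.47). The list mean was 6.25, 6.08, 6.41, 6.26 and 6.20 log2 CPM in NOX4 and 5.17, 5.55, 5.89, 5.88 and 5.66 log2 CPM in SS. All NOX4 libraries were above all SS libraries, and the lowest was the low-complexity SS replicate 1. In whole tissue, more cells of a type and more RNA per cell cannot be told apart.

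Both acid- and base-secreting cells were represented. Rhcg, an ammonia channel, had 184, 161, 223, 179 and 167 CPM in NOX4, without overlap with 84.8, 95.3, 124, 126 and 90.3 CPM in SS (0.81 ± 0.13; edgeR adjusted p = 0.000258). Rhbg, its relative of the basolateral membrane, had 111 to 161 CPM in NOX4 and 48.6 to 109 CPM in SS (0.78 ± 0.16; adjusted p = 0.00177). Slc4a1, the chloride-bicarbonate exchanger of acid-secreting cells and also of red cells, rose by 0.81 ± 0.17, with 205 to 333 CPM in NOX4 and 122 to 229 CPM in SS. It was the only one of 14 tested red blood cell genes to be called, and Hbb and Hba1 of haemoglobin were not (-0.22 and -0.29). Slc26a4, pendrin, of base-secreting cells, rose by 0.76 on the log2 scale, Slc4a9 of the same cells by 0.93, Foxi1, the transcription factor of both, by 0.80, and Hmx2 by 1.33 ± 0.28. Atp6v1b1 and Atp6v0d2 of the proton pump rose by 0.46 and 0.44. Slc26a4, Slc4a9, Foxi1, Atp6v1b1 and Atp6v0d2 were not called without SS replicates 1 and 2, at 0.53, 0.69, 0.42, 0.26 and 0.42. Atp6v1b1 was called at 0.57 without NOX4 replicates 3 and 4, and Slc26a4, Slc4a9, Foxi1 and Atp6v0d2 were not, at 0.54, 0.70, 0.78 and 0.44. Single omissions of NOX4 3 or SS 1 ended the call of Slc26a4 (adjusted p up to 0.067), and those of NOX4 1, 2, 3 or 5 or SS 1, 2 or 5 the call of Atp6v1b1 (up to 0.12). Car2 and Kit were not called, at -0.04 and 0.01.

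Some genes of the thick ascending limb and of the distal nephron were called higher as well. Over all genes tested, 17.4% were called, 9.61% of them higher and 7.77% lower as shares of the genes tested. Of 18 tested genes of the thick limb 6 rose and 1 fell (median 0.09), and 10 had a positive log2 fold change. Bsnd, a subunit of basolateral chloride channels that intercalated cells also express, had 86.3 to 112 CPM in NOX4 and 35.3 to 76.6 CPM in SS. Its groups did not overlap, at 0.77 ± 0.15 (edgeR adjusted p = 0.00109). The defining genes of the thick limb Slc12a1 and Umod were not called, at -0.22 and -0.35. Of 19 principal cell genes 5 rose and 1 fell, with Aqp2, the vasopressin-regulated water channel, at 0.56 and Scnn1a, a subunit of the epithelial sodium channel, at 0.56. Of 17 genes of the distal convoluted tubule and its kinases 3 rose, among them Stk39, the kinase that activates the sodium-chloride cotransporter (0.41 ± 0.12). Without SS replicates 1 and 2, 5 thick limb genes rose, and by edgeR no gene of the other 2 lists was called, with 3 of each at an unadjusted p under 0.05. In that fit Aqp2, Scnn1a and Stk39 had 0.50, 0.39 and 0.27. Scnn1a and Stk39 were not called without NOX4 replicates 3 and 4 either, at 0.57 and 0.39. Of single libraries, NOX4 1, 2 or 5 or SS 1, 2 or 5 ended the call of Aqp2 (adjusted p up to 0.16), NOX4 1, 3 or 5 or SS 1, 2 or 5 that of Scnn1a (up to 0.074), and NOX4 1 or 3 or SS 1 that of Stk39 (up to 0.074).

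Podocyte genes were higher too. Of 18 tested, 7 rose and none fell (median 0.42), and 2 rose without NOX4 replicates 3 and 4 or without SS replicates 1 and 2. Sema3g, a semaphorin of podocytes, had 376, 305, 434, 340 and 323 CPM in NOX4 and 197, 152, 257, 239 and 190 CPM in SS. These did not overlap, at 0.78 ± 0.13 (edgeR adjusted p = 0.000258). Vegfa, the growth factor by which podocytes maintain glomerular capillaries, had 253, 224, 386, 380 and 280 CPM in NOX4 and 149, 174, 192, 244 and 209 CPM in SS, with 1 NOX4 library inside the SS range (0.65 ± 0.13; adjusted p = 0.00117). Nphs1, nephrin of the slit diaphragm, rose by 0.67 ± 0.15 with all libraries and was not called without NOX4 replicates 3 and 4 (0.50; adjusted p = 0.058) or without SS replicates 1 and 2 (0.43; adjusted p = 0.064). Of 21 endothelial genes 4 rose and none fell, led by Plvap of fenestrated capillaries (125 to 155 CPM in NOX4, 86.6 to 105 CPM in SS; 0.49 ± 0.10) and the transcription factor Sox17 (0.87 ± 0.19).

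Proximal tubule markers depended on the segment and on single libraries. Of 20 genes of segments 1 and 2, 4 rose and 1 fell (median 0.29). Slc22a6, the organic anion transporter of the basolateral membrane, had 1790 to 2111 CPM in NOX4, above all SS libraries at 959 to 1599 CPM (0.61 ± 0.12; edgeR adjusted p = 0.000954). Of 15 segment 3 genes, 3 rose and 5 fell (median -0.25). Slc22a13, a urate and nicotinate transporter, had 0.33, 0.36, 0.27, 0.23 and 0.80 CPM in NOX4 and 19.99, 8.46, 0.55, 1.295 and 0.42 CPM in SS. The 2 high SS libraries were replicates 1 and 2, and the log2 fold change of -3.90 was -0.87 without them (adjusted p = 0.55). Without them 1 segment 3 gene rose, none fell, and the median was 0.09. At LS 1 rose and 6 fell (median -0.41), and at HS21 none was called (median -0.34). Mme, a peptidase of the brush border that degrades angiotensin and natriuretic peptides, had 78.6 to 120 CPM in NOX4 and 431, 474, 123, 125 and 113 CPM in SS, with the high values again in SS replicates 1 and 2, without which it was not called (-0.30, against -1.38 with all libraries).

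**Figure D3:**
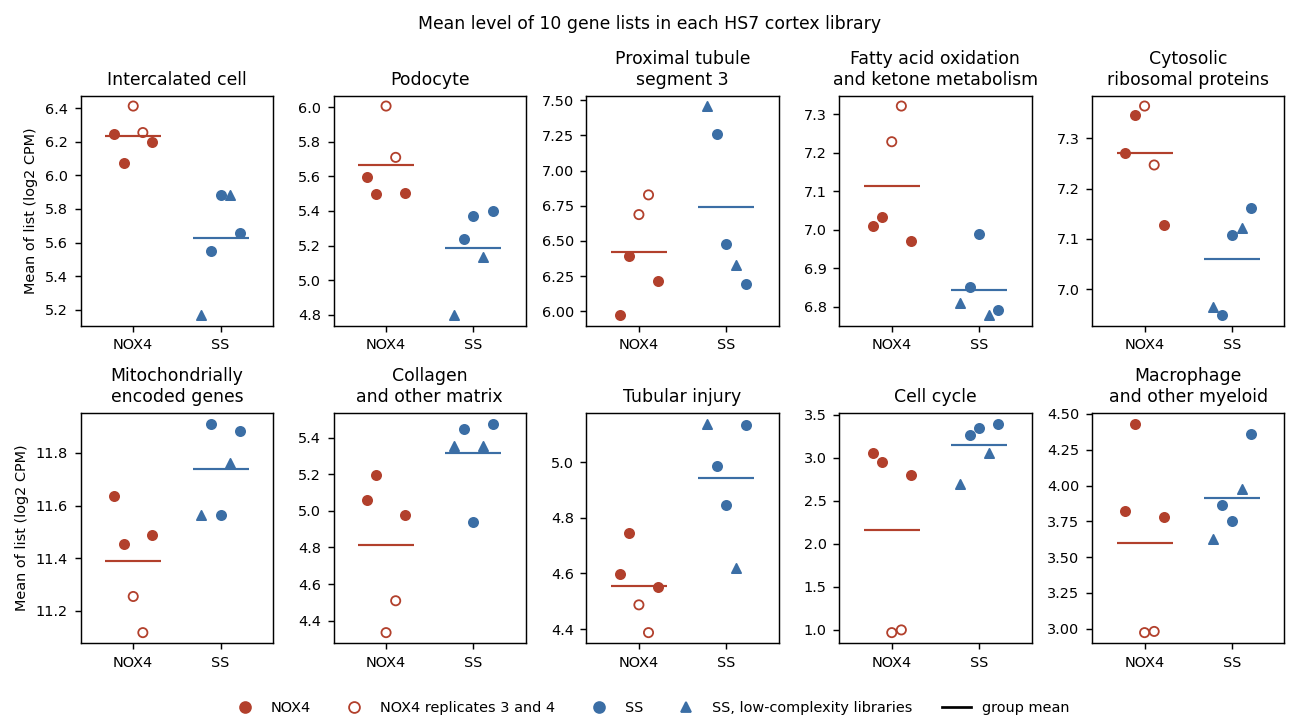
Mean log2 CPM over the tested members of 10 gene lists in each library of NOX4 (left) and SS (right) cortex at HS7, with symbols and lines for the same libraries and group means throughout; each axis has its own range. The intercalated cell and podocyte means of all NOX4 libraries lie above those of all SS libraries, NOX4 replicates 3 and 4 are far below the rest for cell cycle (0.96 and 1.00), and SS replicates 1 and 2 are highest for segment 3.

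Extracellular matrix genes were lower in NOX4 cortex. Of 44 tested, 19 fell and none rose, with a median log2 fold change of -0.41. Without NOX4 replicates 3 and 4, 7 fell (median -0.14), and without SS replicates 1 and 2, 3 fell (median -0.30). The list mean was 5.06, 5.20, 4.34, 4.51 and 4.98 log2 CPM in NOX4 and 5.35, 5.45, 4.94, 5.35 and 5.48 in SS, so replicates 3 and 4 were lowest and the ranges overlapped through SS replicate 3. Fn1, fibronectin, had 101, 93.1, 71.2, 71.9 and 99.0 CPM in NOX4, below all SS libraries at 187, 192, 114, 149 and 194 CPM. Its log2 fold change was -0.94 ± 0.16 (edgeR adjusted p = 0.000515), and -0.77 without NOX4 replicates 3 and 4 (adjusted p = 0.014). Fbn1, fibrillin of microfibrils, had 16.9 to 37.4 CPM in NOX4 and 39.7 to 89.6 CPM in SS (-1.20 ± 0.21), and Tnc, tenascin of wounds and scars, 1.18 to 4.96 CPM in NOX4 and 4.47 to 15.8 CPM in SS (-2.05 ± 0.40). The proteoglycan Dcn fell by 0.71 and Nid1, a basement membrane linker, fell by 0.90, and neither was called without SS replicates 1 and 2, at -0.42 and -0.43. Col3a1, a fibrillar collagen, had a log2 fold change of -0.86 with all libraries and -0.37 without NOX4 replicates 3 and 4, where it was not called, and its call also ended without SS replicates 1 and 2 (-0.70) or without any of NOX4 3 or 4 or SS 1 or 2 alone (adjusted p up to 0.17). Col1a1 was not called, at -0.60. Ltbp2, which binds microfibrils, fell by 1.29 ± 0.25 with 6.29 to 11.3 CPM in NOX4 and 18.0 to 32.3 CPM in SS.

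Matrix proteases and their inhibitors fell more often than they rose, with 9 lower and 2 higher of 25 (3 and 1 without NOX4 replicates 3 and 4). Mmp12, the macrophage elastase, fell by 1.58 ± 0.37 on the log2 scale. Plat, tissue plasminogen activator, rose by 0.38 ± 0.10, and Plau, the urokinase, fell by 0.46 ± 0.14. Plat and Plau had 0.23 and -0.15 and were not called without SS replicates 1 and 2, and Plat had 0.36 and was not called without NOX4 replicates 3 and 4. The call of Plau also ended without any of NOX4 1 or 5 or SS 1 or 2 alone (adjusted p up to 0.10).

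Genes induced in injured tubules were mostly lower. Of 33 tested, 10 fell and 3 rose (median -0.32), and 6 fell and 1 rose without NOX4 replicates 3 and 4. Lcn2, the injury marker NGAL, had 5.09, 5.18, 4.34, 4.13 and 4.18 CPM in NOX4 and 13.9, 8.95, 11.5, 11.05 and 22.1 CPM in SS. No libraries overlapped, at -1.56 ± 0.31 (edgeR adjusted p = 0.00131), and -1.69 without SS replicates 1 and 2. Cp, ceruloplasmin, had 52.7, 86.2, 56.5, 55.2 and 60.4 CPM in NOX4 and 180, 145, 80.0, 103 and 131 CPM in SS (-1.04 ± 0.18; adjusted p = 0.000508), with 1 NOX4 library inside the SS range. Spp1, osteopontin, fell by 1.64 and Havcr1, the injury molecule KIM-1, by 1.53. Prom1 fell by 1.66 ± 0.31, but SS replicates 1 and 2 were highest at 245 and 281 CPM and without them it was not called (-0.80; adjusted p = 0.068). Krt7, a keratin, rose by 0.42 and Gdf15, a stress cytokine, by 0.76. Krt7 had 0.25, Gdf15 0.71 and Havcr1 -1.35 without SS replicates 1 and 2, and none of the 3 was called. Gdf15 had 0.61 and Havcr1 -1.46 without NOX4 replicates 3 and 4, with neither called. Leaving out any of NOX4 1, 3 or 4 or SS 1, 2 or 5 alone ended the call of Gdf15 (adjusted p up to 0.078).

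Complement was lower as well, with 9 of 39 complement and coagulation genes lower and none higher (median -0.19), and 5 lower without NOX4 replicates 3 and 4. C4b had 14.7, 29.4, 10.7, 9.54 and 23.2 CPM in NOX4 and 66.4, 49.6, 64.7, 33.2 and 82.1 CPM in SS (-1.75 ± 0.34; edgeR adjusted p = 0.00123). C4a (ENSRNOG00000000443) had 45.9 to 77.1 CPM in NOX4 and 95.5 to 296 CPM in SS (-1.41 ± 0.24; adjusted p = 0.000462). The groups were apart for both. In the deposited coordinates the C4b entry (chromosome 20, 4302344 to 4316715) lies almost wholly within the C4a entry (4302347 to 4508214), on the same strand. The counting could split reads between C4a and C4b, so they are not separate results. C3, the central component, was not called, at -0.10.

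Immune cells were not among the called groups. None of 23 tested macrophage and other myeloid genes and none of 19 lymphocyte genes was called with all libraries by edgeR or DESeq2, where edgeR gave 3 and 1 an unadjusted p under 0.05. Their medians were -0.25 and -0.18 with all libraries and 0.10 and 0.08 without NOX4 replicates 3 and 4. Of the 27 myeloid markers 23 were at 1 CPM or more, and their sum ranged from 353 to 1070 CPM in NOX4 and from 549 to 863 CPM in SS. Of 39 chemokine, cytokine and adhesion genes 2 fell, Vcam1 of inflamed endothelium and injured tubules among them (-0.71 ± 0.16; 16.9 to 24.5 CPM in NOX4 and 22.7 to 48.7 CPM in SS), which was not called without SS replicates 1 and 2 (-0.51; adjusted p = 0.06). The part of the low macrophage, matrix and cell cycle levels of NOX4 replicates 3 and 4 in the calls above was not tested beyond leaving them out.

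Cell cycle calls were nearly all lost without those 2 libraries. Of 41 tested, 14 fell and none rose (median -0.75), and without them 1 fell, with a median of -0.36. Calls were also lost without SS replicates 1 and 2, where 3 fell, with a median of -0.73. Mki67, a marker of cycling cells, had 15.9, 21.7, 2.20, 1.46 and 15.6 CPM in NOX4 and 26.2, 23.5, 25.2, 33.4 and 31.4 CPM in SS. All NOX4 libraries were below all SS libraries, and the log2 fold change was -1.29 with replicates 3 and 4 (edgeR adjusted p = 0.0378) and -0.65 and not called without them. Leaving out any of NOX4 3 or 4 or SS 1, 2, 4 or 5 alone also ended its call (up to 0.093). Kif20b, a mitotic kinesin, was the gene still called without NOX4 replicates 3 and 4 (-0.86, edgeR adjusted p = 0.034). It had 1.72 to 5.36 CPM in NOX4 and 6.55 to 12.01 CPM in SS. Ccnd1, cyclin D1 of the entry into the cycle, had 366, 149, 119, 156 and 326 CPM in NOX4 and 415 to 462 CPM in SS, and was not called without replicates 3 and 4 (-0.66, against -0.99 with all libraries; adjusted p = 0.083).

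Genes of the angiotensin system were more often lower, with 5 of 13 tested that fell and 1 that rose. Agt, angiotensinogen, had 9.11 to 16.8 CPM in NOX4 and 87.1, 59.2, 17.4, 12.9 and 15.4 CPM in SS, high in the 2 SS libraries rich in segment 3. It had a log2 fold change of -1.55 with all libraries and -0.22 without these. It was called neither there nor without NOX4 replicates 3 and 4 (-1.59), nor without any of NOX4 1 or 3 or SS 1 or 2 alone (adjusted p up to 0.14 for single libraries). At LS the log2 fold change of Agt was -1.97 (edgeR adjusted p = 0.0032), and at HS21 it was -1.41 and not called. Without SS replicates 1 and 2, 1 of the 13 rose and 1 fell. Enpep, an aminopeptidase that cleaves angiotensin II, fell by 0.40 ± 0.08 and had 184 to 244 CPM in NOX4, below SS at 250 to 339 CPM, but was not called without NOX4 replicates 3 and 4 (-0.29; adjusted p = 0.051). Agtr1a, the main angiotensin receptor, was not called, at -0.40.

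Other salt-handling and vasoactive lists held calls in both directions, where 17.4% of all genes tested were called. Among 28 genes of endothelin, nitric oxide and related signals 2 rose and 1 fell: Gucy1b3, a subunit of the nitric oxide receptor, had 17.6 to 22.6 CPM in NOX4 and 25.0 to 31.2 CPM in SS (-0.51 ± 0.13; edgeR adjusted p = 0.00801). Of 30 genes of prostaglandin and arachidonic acid metabolism 4 rose and 5 fell, with Ptges, a prostaglandin E synthase, at 16.4 to 23.8 CPM in NOX4 and 6.12 to 15.3 CPM in SS (0.89 ± 0.22). Of 23 sodium pump and other transport genes 2 rose and 2 fell. Pth1r, the parathyroid hormone receptor, rose by 0.63 ± 0.11, and Slc34a1, the phosphate transporter it controls, by 0.43 ± 0.12. Gucy1b3 had -0.49 without SS replicates 1 and 2, just short of the threshold (adjusted p = 0.0504), Ptges 0.67 and Slc34a1 0.27, none of them called. Slc34a1 had 0.37 and was not called without NOX4 replicates 3 and 4.

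The genes with the furthest fold changes, called with all libraries and without NOX4 replicates 3 and 4, were partly low in level. Highest was Thrsp, a lipogenic gene, with 3.08, 3.20, 0.05, 2.27 and 0.18 CPM in NOX4 and 0 to 0.07 CPM in SS, so 2 NOX4 libraries were near the SS level. Its log2 fold change of 5.69 ± 1.51 (edgeR adjusted p = 0.0106) depends on counts near 0 in SS. Of 10 tested markers of adipocytes and perirenal fat 1 was called, Pck1, which proximal tubules also express, and none of the 17 listed was at 0 in all 10 libraries. The summed level of the list was 8124 to 13497 CPM in NOX4 and 5116 to 7181 CPM in SS, most of it from Pck1. The mean over the 10 tested markers was 3.64, 3.99, 3.25, 3.85 and 2.74 log2 CPM in NOX4 replicates 1 to 5, the highest in the libraries where Thrsp was above 1 CPM, and 2.50 to 3.62 in SS. The median of these markers was 0.46 at HS7 and -0.59 at HS21, and their part in the level of Thrsp was not tested. Rnf186, a ubiquitin ligase of the endoplasmic reticulum, had 9.07 to 9.87 CPM in NOX4 and 0.97 to 5.57 CPM in SS (1.4999 ± 0.28). Tmem213 had 33.2 to 58.2 CPM in NOX4 and 9.75 to 20.04 CPM in SS (1.41 ± 0.22), and Hyi, named for a hydroxypyruvate isomerase, 13.1 to 21.1 CPM in NOX4 and 2.91 to 8.33 CPM in SS (1.39 ± 0.19). NOX4 and SS libraries did not overlap for any of these 3. Atn1 (2.12) had 2 high NOX4 libraries, replicates 2 and 5 at 12.2 and 12.8 CPM, and 1.31 to 2.90 CPM in the other NOX4 libraries, against 0.40 to 2.10 CPM in SS. Others of the 10 highest were Tldc2 (1.71), Rpl35a (ENSRNOG00000031641, 1 of several genes with this symbol; 1.41) and Hmx2. Thrsp, Atn1 and Rpl35a were not called without SS replicates 1 and 2, at 5.14, 1.85 and 1.02, and Atn1 was not called without any of NOX4 2 or 5 or SS 2 alone (adjusted p up to 0.073).

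Of the 10 lowest, Nox4 alone was called without SS replicates 1 and 2. Without these libraries Cfhr2, Slc22a13, Sntg2, Olr1668, Cftr and Mcoln2, all highest in them, had edgeR adjusted p of 0.99, 0.55, 0.072, 0.83, 0.88 and 0.25. SS 1 alone ended the calls of Cfhr2 and Cftr (adjusted p of 0.22 and 0.059 without it), and any of NOX4 1, 2, 3 or 5 or SS 1 or 2 that of Olr1668 (up to 0.21). Cftr, a chloride channel, had 0.47 to 1.92 CPM in NOX4 and 12.01, 9.35, 0.94, 0.61 and 0.78 CPM in SS. At LS its log2 fold change was -3.85 (edgeR adjusted p = 0.000235), and at HS21 it was -1.10 and not called. Smoc2, a matrix-associated protein of fibroblasts, had 0.86 to 1.89 CPM in NOX4 and 2.54 to 13.4 CPM in SS without overlap (-2.57 ± 0.52; edgeR adjusted p = 0.00157; adjusted p = 0.054 without SS replicates 1 and 2). Gm9772 (-2.75; adjusted p = 0.056 without these libraries) had no overlap either, and Mast4 (ENSRNOG00000010720; -2.44; adjusted p = 0.15 without them) had 1 SS library within the NOX4 range.

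NOX4 replicates 3 and 4 differed from the other 3 NOX4 libraries beyond the lists above, given here as a description. Lowest in them among genes of at least 5 CPM were haemoglobin (Hbb 1.77 and 3.26 CPM, against 37.5 to 85.2 CPM in the others, and Hba1 and Hba2), the mitotic genes Top2a and Cenpf, and Hao1, the glycolate oxidase of peroxisomes (0.05 and 0.12 CPM, against 6.40 to 7.52 CPM). Highest was Azgp1 (8.74 and 7.80 CPM, against 0.50 to 0.62 CPM), and others were Mrpl30, Acvr1c, Rbp4 and Prodh, the proline dehydrogenase (157 and 143 CPM, against 19.5 to 27.4 CPM). Prodh was called for strain with all libraries (1.70 ± 0.41; edgeR adjusted p = 0.00529), and its log2 fold change was -0.00 without them. Srebf1, a driver of lipid synthesis, had 71.0, 69.1, 199, 173 and 56.6 CPM in NOX4 and 49.97 to 64.6 CPM in SS, with 0.97 and 0.18 in the same fits.

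The strain difference at HS7 was then set beside those of other diets and of outer medulla. At LS 3342 genes (22.0%) were called, at HS21 152 (1.00%), and in outer medulla at HS7 2683 of 16326 (16.4%). Of the genes called in cortex at HS7, 48.4% were called the same way at LS, which is 38.2% of the LS calls, and 3.33% at HS21, which is 57.9% of the HS21 calls. These counts do not test a difference. In SS, replicates 2, 3 and 4 of LS cortex and replicates 1, 3 and 4 of HS7 outer medulla were also of low complexity. No NOX4 library and no HS21 library was. The part of library complexity in these counts was not tested. In the interaction test of HS7 minus LS, 2 genes (0.0132%) were called by edgeR, 1980 had an unadjusted p under 0.05, and DESeq2 called 95. Rab32, a GTPase of mitochondria and lysosome-related organelles, had 32.6 to 36.1 CPM in NOX4 and 49.8 to 56.4 CPM in SS at HS7, with log2 fold changes of -0.63 at HS7 and -0.06 at LS and a difference of -0.57 ± 0.10 (adjusted p = 0.0319). This call was lost in 9 of the 20 fits that each left out 1 library (adjusted p up to 0.11). Map2k6, a kinase upstream of p38, had -1.004 at HS7 and 0.66 at LS (difference -1.67 ± 0.27; adjusted p = 0.0112), and was called in all 20 of those fits. Neither was called without NOX4 replicates 3 and 4 (adjusted p = 0.079 for both), nor without the low-complexity libraries.

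Between HS7 and HS21 the strain difference itself differed for 36 genes (0.237%), 24 with a higher and 12 with a lower log2 fold change at HS7. RT1-CE16, a class I histocompatibility gene whose relatives are near-identical, had 0.86 at HS7 and -0.15 at HS21 (difference 1.00 ± 0.16; edgeR adjusted p = 0.0082), with 69.0 to 92.9 CPM in NOX4 and 29.3 to 51.8 CPM in SS at HS7. Fzr1, an activator of the anaphase-promoting complex, had 36.8 to 39.5 CPM in NOX4 and 18.0 to 29.7 CPM in SS at HS7, with 0.70 there and -0.02 at HS21 (difference 0.72 ± 0.12; adjusted p = 0.0102). Zfp36l1, which destabilises messenger RNA, had 0.36 and -0.31. The differences of these 3 genes were called in each of 20 fits without 1 library, and those of RT1-CE16 and Fzr1 also without NOX4 replicates 3 and 4 or SS replicates 1 and 2 (adjusted p of 0.0029 to 0.031). Of the genes named above, Hyi (1.39 and 0.15), Mt-nd3 (-0.54 and 0.25) and Thrsp (5.69 and -3.76) were also among the 36, but their calls for this difference were lost in 12, 10 and 8 of those 20 fits (adjusted p up to 0.17). Map2k6 was among the 36 as well (-1.004 at HS7; difference -1.41), and was called in all of the 20 but not without NOX4 replicates 3 and 4 (difference -1.41; adjusted p = 0.085). Without NOX4 replicates 3 and 4, 5 genes were called for this difference.

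Between cortex and outer medulla at HS7 the strain difference differed for 2 genes (0.0123%). Synpo, synaptopodin of podocytes, had 58.9 to 100 CPM in NOX4 cortex and 36.3 to 57.5 CPM in SS cortex, with log2 fold changes of 0.57 in cortex and -0.98 in outer medulla and a difference of 1.54 ± 0.29 (edgeR adjusted p = 0.0267). Ppp2r2c, a phosphatase subunit, had 0.92 and -1.41 (difference 2.33 ± 0.45; adjusted p = 0.0267). Neither was called for this difference without NOX4 HS7 cortex replicates 3 and 4, and leaving out single libraries ended the calls in 7 of 20 fits for Synpo and 9 for Ppp2r2c (adjusted p up to 0.11). Their cortex differences were not called without NOX4 replicates 3 and 4 (0.31 for Synpo and 0.77 for Ppp2r2c) or without SS replicates 1 and 2 (0.38 and 0.87), nor that of Synpo without NOX4 3 alone (adjusted p = 0.061). Cortex and outer medulla pieces may come from the same animals, which the labels do not say. Outer medulla pieces differed in segment 3 markers. Scaled with all 60 libraries, their mean at HS7 was 3.70 to 7.60 log2 CPM in SS and 5.54 to 6.91 in NOX4 outer medulla. In cortex at HS7 it was 6.14 to 7.63. The part of this in the outer medulla values was not tested.

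The medians of the lists at each diet were compared without a test. The intercalated cell list had 0.40 at LS, 0.58 at HS7 and 0.61 at HS21, and 0.30 in outer medulla at HS7. The fatty acid oxidation list had 0.07, 0.30 and 0.15 at LS, HS7 and HS21. The matrix list had -0.05, -0.41 and -0.66, with 4, 19 and 17 members lower where 10.3%, 7.77% and 0.665% of all genes were, and the injury list -0.10, -0.32 and -0.45. Cell cycle had -0.21, -0.75 and -0.37. Of single genes, Fn1 had -0.53, -0.94 and -1.20 and Lcn2 -0.16, -1.56 and -1.24 in the same order. Neither was called for HS7 minus LS or HS7 minus HS21.

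**Figure D4:**
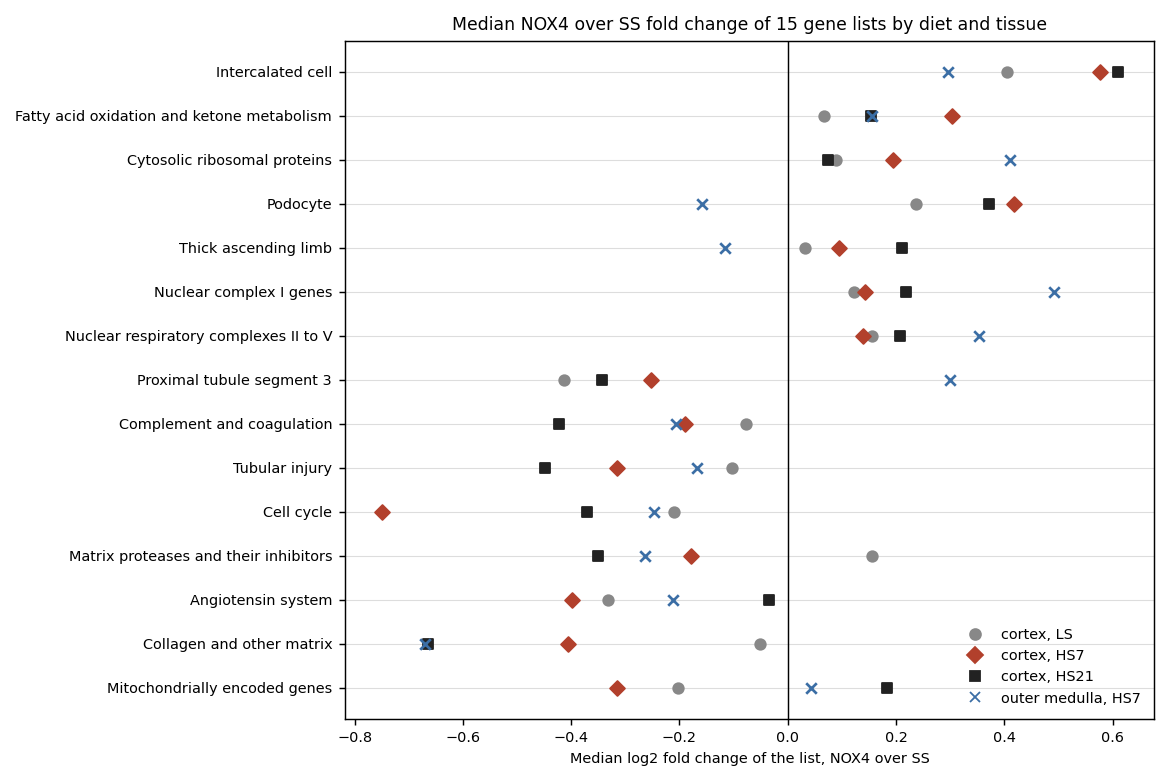
Median log2 fold change of NOX4 over SS for 15 gene lists (x axis) in cortex at LS, HS7 and HS21 and in outer medulla at HS7, with a line at 0. Matrix genes have -0.05, -0.41 and -0.66 in cortex at LS, HS7 and HS21, intercalated cell genes stay above 0 in all 4 comparisons, and segment 3 markers have -0.25 in cortex at HS7 and 0.30 in outer medulla.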

How the data were processed

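Per the submitters' processing notes, the authors used HISAT2 2.0.5, StringTie 1.3.3b and featureCounts 1.5.0-p3; the genome build is not given in the sources used here. Per the file headers, the deposited table holds a raw read count and an FPKM per gene and library, and the authors' own comparisons with a group mean signal, a log2 fold change and a p-value. The authors' test is not stated, and 1430 genes tested here had a deposited adjusted p-value under 0.05, of which 1379 were called here.

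The deposited counts of 32545 genes were analysed with edgeR 4.0.16 in R 4.3.3. Genes passed filterByExpr by group, counts were scaled by TMM, and a quasi-likelihood F test took NOX4 minus SS at HS7 from 1 coefficient per group over the 30 cortex libraries (60 for differences between tissues). Adjusted p-values follow Benjamini and Hochberg. A standard error is the size of the log2 fold change over the square root of F. CPM are scaled by TMM, except sums over marker lists, which use the library total, and log2 CPM use a prior count of 2. FPKM were used only for the NADPH oxidase genes. Totals were 12.6 to 22.9 M counts; reads without molecular identifiers also hold amplified copies. Replicates differed beyond sampling noise, with a mean chi-square per gene of 7.36 to 74.0 over pairs.

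There were 48 lists with 1382 entries; 1328 could be matched to the table, 7 by the RefSeq table of GRCr8. Libraries, lists, genes and alternatives were chosen with earlier results of these data known. Lists are described by counts and medians, with no test. Named genes were Nox4; the 10 highest and 10 lowest fold changes among genes called with and without NOX4 replicates 3 and 4, with at least 1 CPM in a group and a symbol; up to 3 called genes per list with the smallest p, those kept without these libraries first; the 4 smallest p per interaction; and the 6 highest and 6 lowest differences of replicates 3 and 4 from the other NOX4 libraries. Other members are named for their role, and genes given for being among the 36 were chosen after their values were seen. Alternatives were DESeq2 1.42.0 and its size factors, 2 filters, limma 3.58.1 voom with quality weights, a replicate block, a segment 3 covariate, the 10 libraries alone and fits without libraries; those without SS replicates 1 and 2, and without low-complexity libraries and NOX4 replicates 3 and 4 together, were chosen after seeing the data. On simulated counts for this comparison (15053 genes), 41.8%, 71.6% and 84.8% of genes changed 1.5-, 2- and 4-fold were called, with 6 calls among unchanged genes. The simulation drew genes and libraries independently, with the same spread of a gene in all groups. It held no libraries that stand apart and no genes that move together, so it does not measure false calls in these data. Results of some genes are not reported here.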

Additional observations from a re-analysis of the deposited data

Results flagged for a closer look

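Of 384 groups of 5 libraries screened (genes and lists, each strain), 18 held 1 library further from the others than Dixon's 95% limit allows, where chance flags about 1 in 20 groups. SS replicate 1, one of the low-complexity libraries, was the lowest of its group in 6 of them. It had 256 CPM of Nox4, against 434 to 530 CPM in the other SS libraries, 20.6 CPM of the kinase Stk39, against 29.7 to 34.3 CPM, and 2.91 CPM of Hyi, against 6.63 to 8.33 CPM. Its list means were 4.38 log2 CPM for circadian clock genes, 4.63 for NADPH oxidase genes and 5.31 for sodium pump and other transport genes.

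SS replicate 3 had 83.5 CPM of Col1a1 and 25.0 CPM of Gucy1b3, both low. Its list means were 4.94 log2 CPM for matrix genes, low, and 8.04 for genes of pyruvate entry and the tricarboxylic acid cycle, high. SS replicate 2 had 86.6 CPM of Plvap, low, and a mean of 4.87 log2 CPM for conjugating enzymes, high.

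In NOX4, replicate 2 was high for Cp at 86.2 CPM, for RT1-CE16 at 92.9 CPM and for the angiotensin system list at 5.02 log2 CPM. Replicate 3 had 9.87 CPM of Rnf186, against 9.07 to 9.20 CPM in the others, and 4.08 log2 CPM for smooth muscle, pericyte and mesangial genes. Replicate 4 had 2.04 CPM of Mcoln2.

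The difference between strain effects was called by edgeR's interaction test for 11 of the comparisons of named genes. HS7 minus LS was -1.67 on the log2 scale for Map2k6 and -0.57 for Rab32. HS7 minus HS21 was 0.72 for Fzr1, 1.24 for Hyi, -1.41 for Map2k6, -0.80 for Mt-nd3, 1.00 for RT1-CE16, 0.67 for Zfp36l1 and 9.44 for Thrsp, whose counts are near 0 in some groups. Cortex minus outer medulla was 2.33 for Ppp2r2c and 1.54 for Synpo.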

How the results depend on the processing

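For NOX4 against SS in cortex at HS7, 2639 genes were called. The count was 184 in a fit of the 10 compared libraries alone, 1447 with limma voom and quality weights, 1081 without NOX4 replicates 3 and 4 and 926 without SS replicates 1 and 2, and 1582 to 3475 when single libraries were left out, lowest without SS replicate 2. It was 2642 with DESeq2 size factors, 3167 with DESeq2 and 2097 with a segment 3 covariate. For HS7 minus LS the count of 2 was 95 with DESeq2, 1 with voom, without a filter on low counts, with the segment 3 covariate or without low-complexity libraries, 0 without NOX4 replicates 3 and 4 (also with the low-complexity libraries left out), 543 without SS replicates 1 and 2, and 1 to 27 without single libraries. For HS7 minus HS21 the count of 36 was 257 with DESeq2, 212 with voom, 67 with the segment 3 covariate, 5 without NOX4 replicates 3 and 4, 7 without SS replicates 1 and 2, 199 without low-complexity libraries, 58 without these and NOX4 replicates 3 and 4, and 13 to 227 without single libraries, highest without SS HS7 replicate 3. For cortex minus outer medulla the count of 2 was 62 with DESeq2, 264 with voom, 39 with the segment 3 covariate, 0 without NOX4 replicates 3 and 4 or without SS replicates 1 and 2, 565 without low-complexity libraries, 16 without these and NOX4 replicates 3 and 4, and 0 to 660 without single libraries, highest without SS HS7 outer medulla replicate 3. For HS7 minus LS, the 1 gene called without low-complexity libraries was not among the 2 called with all libraries. The cause of these changes in count was not tested. The Nox4 difference of -2.66 was -2.57 to -2.84 without single libraries and -2.645 without NOX4 replicates 3 and 4. It passed its exact permutation test in each case. With no overlap between the groups that outcome was fixed in advance, so it is no further check.

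Of 172 called genes named in the text or by the naming rule, DESeq2 size factors kept 172 calls, the replicate block 162, leaving out NOX4 replicates 3 and 4 107, and the 10 libraries alone 41 of 168. The naming rule favoured genes still called without NOX4 replicates 3 and 4, so 107 is not the share to expect of called genes. Of all 2639 genes called, 974 were called the same way without these libraries. Leaving out 1 library kept 138 to 172, and 127 were kept under each single omission. The direction turned once, for Prodh (-0.003 without NOX4 replicates 3 and 4). Libraries with the same replicate number did not deviate together (r of -0.073, 0.016, -0.017, -0.01 and 0.083), 1 of 5 correlated best with its own number, and a replicate block gave 2506 calls. At totals of 12.6 to 22.9 M counts, genes near 1 CPM rest on few reads.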

Other observations

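Several groups of genes not described above are listed in this section, some with calls in both directions. Over all 15179 genes tested, 17.4% were called, 9.61% higher and 7.77% lower. Of 31 proteasome genes tested, 6 rose and 7 fell (median log2 fold change -0.01). Psma3, a subunit of the outer ring, had 84.4 to 97.3 CPM in NOX4 and 101 to 152 CPM in SS without overlap (-0.47 ± 0.09; edgeR adjusted p = 0.000891), while Psmb6, a catalytic subunit, had 64.3 to 71.0 CPM in NOX4 and 41.0 to 67.4 CPM in SS (0.36 ± 0.09; adjusted p = 0.00627). Of 32 immediate early genes 4 rose and none fell, although the median was -0.11. Jund, a subunit of the AP-1 factor, had 212 to 272 CPM in NOX4 and 107 to 205 CPM in SS (0.61 ± 0.11; adjusted p = 0.000828). Gadd45a, induced by DNA damage, had 83.6 to 100 CPM in NOX4 and 49.98 to 77.8 CPM in SS (0.54 ± 0.12), and was not called without SS replicates 1 and 2 (adjusted p = 0.065). Neither gene's groups overlapped.

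Of 23 genes of hypoxia sensing and response 2 rose, Vegfa and Egln2. Egln2, a prolyl hydroxylase that marks hypoxia-inducible factors for breakdown, had 68.6 to 75.9 CPM in NOX4 and 38.9 to 57.7 CPM in SS (0.53 ± 0.09; edgeR adjusted p = 0.000418). Of 32 growth factor genes 5 rose and 4 fell. Gas6, a ligand of the TAM receptors, had 341 to 392 CPM in NOX4 and 202 to 324 CPM in SS (0.49 ± 0.09; adjusted p = 0.000828). Hgf, hepatocyte growth factor, had 5.79 to 12.3 CPM in NOX4 and 11.4 to 37.0 CPM in SS (-1.22 ± 0.25), and was not called without SS replicates 1 and 2 (-0.59; adjusted p = 0.11). Of 27 genes of TGF-beta signalling 2 rose and 2 fell, with its receptor Tgfbr2 at 0.38 ± 0.09 with all libraries and 0.17 without NOX4 replicates 3 and 4, where it was not called.

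Among 33 conjugating enzymes and other cytochrome P450 genes 3 rose and 4 fell. Gsta2, a glutathione transferase, had 19.6 to 33.7 CPM in NOX4 and 23.8 to 94.1 CPM in SS (-1.22 ± 0.22; edgeR adjusted p = 0.000541). Of 23 organic anion and cation transporters 2 rose and 6 fell, among them Abcb1a, a drug efflux pump, with 12.2 to 22.9 CPM in NOX4 and 29.6 to 47.4 CPM in SS (-1.01 ± 0.20; adjusted p = 0.00146). Both genes were called without NOX4 replicates 3 and 4 and without SS replicates 1 and 2. Of 32 genes of cholesterol and fatty acid synthesis 3 rose and 6 fell, and without NOX4 replicates 3 and 4 edgeR called none, with 10 at an unadjusted p under 0.05. DESeq2 called 10 of the 32 with all libraries. Idi1, of isoprenoid synthesis, had 16.5, 18.2, 8.42, 8.32 and 16.1 CPM in NOX4 and 20.9 to 32.2 CPM in SS, and was not called without NOX4 replicates 3 and 4 (adjusted p = 0.058) or without SS replicates 1 and 2 (adjusted p = 0.059). Of 39 heat shock and endoplasmic reticulum stress genes 8 rose and 2 fell (2 and none without NOX4 replicates 3 and 4), of 22 genes of antigen presentation 2 rose, and of 32 interferon-stimulated genes 1 rose and 1 fell.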
